A study of Mus musculus with 21 samples.

Results

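Control mice of a brain endothelial Pdcd10 knockout study were kept at 12% oxygen for 7 days and compared with controls kept at 21% oxygen, to describe how astrocyte-enriched RNA of mice that keep Pdcd10 differs after a week of low oxygen. The comparison used the 4 control hypoxia libraries and the 4 control normoxia libraries that the labels and table columns name, out of 19 libraries with counts and 21 in the labels; replicates 1 and 2 of the hypoxic controls are not analysed here. All expressed genes were included, which was 19854 of 55416 gene IDs. Both groups carried the labelled genotype Pdcd10fl/fl; Aldh1l1-EGFP/Rpl10a, that is, loxP-flanked Pdcd10 alleles and a ribosomal protein tagged with EGFP that the Aldh1l1 promoter drives in astrocytes. Brains were taken at postnatal day 57, and every sample has the tag male. The knockout mice, used below only to set their response beside that of the controls, carried in addition a tamoxifen-inducible Cre recombinase (Slco1c1-iCreERT2) under the promoter of Slco1c1, a gene of brain endothelium that astrocytes also use. According to the study's design, uninjected mice with the Cre transgene served as controls as well; the labels do not say whether any of the 8 libraries came from such a mouse, nor that each library is 1 animal. The p-values therefore measure how these libraries spread, which may be technical. The design text describes ribosome-bound RNA purified from astrocytes, and the extraction text total RNA from brain homogenate.

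Cells answer low oxygen chiefly through the hypoxia-inducible factors (HIFs). Prolyl hydroxylases mark the HIF alpha subunits for destruction when oxygen is present; without it the subunits persist, bind short DNA motifs and raise genes of glycolysis, vessel growth and mitochondrial restraint. Over days, growth of capillaries and more red cells restore part of the oxygen supply of the brain, and astrocytes, which store the brain's glycogen and wrap its vessels, are among the cells that take part.

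The libraries held 49967274 to 65237032 counts each in the 2 control groups, and levels below are counts scaled to library size (CPM, the usual unit of reads relative to depth). Astrocyte genes were high in both groups: the deposited values per gene length (RPKM) averaged 1304 in normoxia and 1375 in hypoxia for Gfap, and 394 and 433 for Slc1a3, the astrocyte glutamate transporter GLAST. The neuronal gene Snap25 averaged 53.2 and 59.2 RPKM, the microglial gene Cx3cr1 0.839 and 0.770 RPKM, and the endothelial genes Cldn5 and Pecam1 0.754 and 0.131 RPKM in normoxia, so RNA of other cells was present. Fewer cells of a type and less RNA per cell cannot be told apart in such samples. Pdcd10 itself, which neither group deletes by its label, was at 19.6 to 23.5 CPM in normoxia and 24.6 to 30.7 CPM in hypoxia, against 6.98 to 12.2 CPM in the knockouts. Some libraries stood apart. The Y-linked gene Ddx3y was at 3.24 CPM in control normoxia 3, 0.686 CPM in control normoxia 4 and 0 in control hypoxia 6, against 49.4 to 79.1 CPM in the other 5, although all have the tag male. Control hypoxia 3 and 6 were low in choroid plexus RNA: the carrier protein Ttr was at 124 and 746 CPM there, against 850.1 to 4117 CPM in the other 6 control libraries.

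In all, 17 genes passed the threshold, an adjusted p under 0.05 in edgeR's quasi-likelihood test with Benjamini-Hochberg adjustment over all genes, and 16 of them were lower in hypoxia. That is 0.0856% of the genes tested (0.00504% higher and 0.0806% lower), and the groups did not overlap for any of the 17. In the knockouts the same oxygen step gave 2489 calls, 12.5% of the genes tested (4.76% higher and 7.77% lower), in 7 against 4 libraries. At an unadjusted p under 0.05 the controls had 1788 genes, 9.01% of those tested, 768 higher (3.87%) and 1020 lower (5.14%). The hypoxic libraries were all above the normoxic ones for 892 genes (4.49%) and all below for 900 genes (4.53%). Other methods gave more calls and another balance: DESeq2 called 140 genes, 59 higher and 81 lower, and limma-voom with sample weights 400, 161 higher and 239 lower. The number of calls also changed with single libraries: leaving out control normoxia 3 left 4 calls, control normoxia 4 left 8, and control hypoxia 3, 4 and 5 left 3, 4 and 6, while leaving out control hypoxia 6 gave 39. Slco1c1 and Pde3a passed in all 20 alternative settings.

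Slco1c1 and Pde3a had the lowest p-values and the largest falls among the 17 called genes. Slco1c1 encodes the transporter OATP1C1, which carries thyroxine across the blood-brain barrier and into astrocytes. Its level was 838, 654, 608 and 690.0 CPM in the normoxic controls and 94.1, 103, 127 and 105 CPM in the hypoxic controls. Every hypoxic library was below every normoxic one, and the groups were far apart. Slco1c1 fell by 2.70 ± 0.24 (SE) on the log2 scale, 6.51-fold lower, with an adjusted p of 2.34e-05. Pde3a, which encodes a phosphodiesterase that breaks down cyclic nucleotides, was at 48.3, 32.8, 30.03 and 33.3 CPM in normoxia and at 2.30, 2.23, 2.35 and 1.27 CPM in hypoxia. It fell by 4.15 ± 0.43 on the log2 scale, with an adjusted p of 0.000133. In RefSeq's order of genes (build GRCm38.p6, not the build of the counts) the 2 genes are direct neighbours. None of the 10 other genes tested among the 10 on each side of Slco1c1 passed the threshold. Aebp2, the next beyond Pde3a, differed by -0.08 ± 0.07 and Slco1a4, the nearest tested gene on the other side, by -0.54 ± 0.37. Slco1a5, beyond Slco1a4 and named after its values were seen, was low in both groups, at 0.877 and 0.418 CPM on average. It differed by -1.06 ± 0.43 (adjusted p 0.462 in edgeR's test).

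In the knockouts neither gene was called. Their Slco1c1 level was 194 to 476 CPM in normoxia and 256 to 491 CPM in hypoxia, and Pde3a was at 9.45 to 29.1 and 19.4 to 56.5 CPM. The 4 hypoxic control libraries were therefore below all 15 other libraries for both genes, as the plot of their levels by library shows. The normoxic controls stood apart from the knockouts as well. For Slco1c1, at 608 to 838 CPM, they were above every knockout library. For Pde3a, at 30.03 to 48.3 CPM, they were above every normoxic knockout library, but not above every hypoxic one. The hypoxia response differed between knockouts and controls by 2.83 ± 0.31 for Slco1c1 and by 4.71 ± 0.54 for Pde3a on the log2 scale (adjusted p 0.000652 for both in edgeR's interaction test), and these were the only 2 genes called in that test, 0.0101% of those tested; 2292 genes had an unadjusted p under 0.05 there, and DESeq2 called 108. The knockouts carry a transgene under the Slco1c1 promoter, and whether the 2 control groups differ in such a transgene is not given in the labels. Oxygen and a difference in genotype at this locus therefore cannot be told apart for these 2 genes. Any difference in genotype between the 2 control groups would go with every other gene of this comparison as well, and its part was not tested. The summed level of 15 endothelial markers went from 643 to 858 CPM in normoxia to 124 to 177 CPM in hypoxia, and most of that sum is Slco1c1 itself. None of the other 14 was called, and Cldn5, the tight junction protein claudin-5, was at 0.536 to 1.77 CPM in normoxia and 0.736 to 2.80 CPM in hypoxia.

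**Figure D1:**
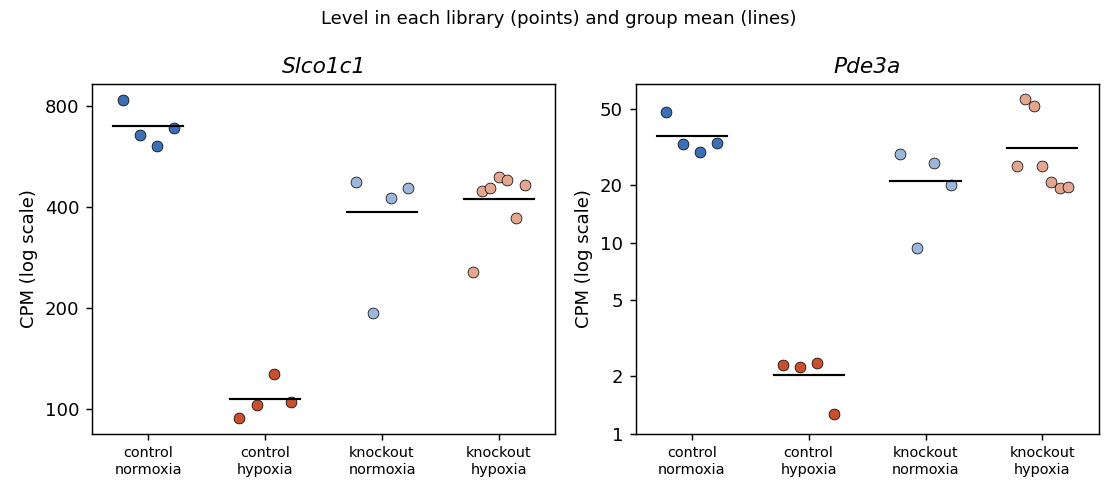
Level of Slco1c1 (left) and Pde3a (right) in each of the 19 libraries, in CPM on a log axis; points are libraries and lines are group means. The 4 control hypoxia libraries, at 94.1 to 127 CPM for Slco1c1 and 1.27 to 2.35 CPM for Pde3a, lie below every library of the other 3 groups. The control normoxia libraries lie above every knockout library for Slco1c1 and above every knockout normoxia library for Pde3a.

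The other 15 called genes were a mixed set, and all 15 had the same sign in the knockouts, whose libraries are not shared with the controls. The share of all genes with the same sign was not determined. Of the 15, 10 were called the same way in the knockouts, where 12.5% of all genes tested were called (4.76% higher and 7.77% lower). Acacb encodes acetyl-CoA carboxylase 2, whose product restrains the entry of fatty acids into mitochondria. It was at 14.6, 13.3, 17.7 and 19.8 CPM in normoxia and at 5.81, 8.89, 8.47 and 8.53 CPM in hypoxia, with no overlap. Acacb fell by 1.05 ± 0.15 on the log2 scale (adjusted p 0.00542), and by 0.48 ± 0.13 in the knockouts (adjusted p 0.0197). It passed in 18 of 20 alternatives, the exceptions being those without the 3 libraries low in Y-linked RNA (-0.86, adjusted p 0.31) and without control hypoxia 3 and 6 (-0.92, adjusted p 0.058).

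Eprs encodes the glutamyl-prolyl-tRNA synthetase, which charges 2 tRNAs for protein synthesis. Its level was 132, 132, 139.9 and 148 CPM in normoxia and 97.7, 102, 96.0 and 87.4 CPM in hypoxia. The groups did not overlap, and Eprs fell by 0.53 ± 0.09 in the controls (adjusted p 0.0302) and by 0.74 ± 0.08 in the knockouts (adjusted p 0.000133). Leaving out any 1 control library took its adjusted p in the controls to 0.054 to 0.13. Maml3, a coactivator of Notch transcription, fell by 0.77 ± 0.13 from 8.50 to 10.9 CPM to 5.15 to 6.24 CPM. Rps6ka1, the kinase RSK1 downstream of ERK, fell by 0.51 ± 0.09 from 29.6 to 32.4 CPM to 21.6 to 22.9 CPM. In the knockouts Rps6ka1 differed by -0.11 ± 0.08, and the difference between the genotypes was not called (adjusted p 0.309 in edgeR's interaction test). Scnn1a, a subunit of the epithelial sodium channel, fell by 0.53 ± 0.10, and was called in the knockouts as well (-0.46 ± 0.08, adjusted p 0.00407). Maml3 passed in 11 of 20 alternatives, Rps6ka1 in 9 and Scnn1a in 7, all with the same sign. Rps6ka1 and Scnn1a passed without control hypoxia 6 and lost the call without any other single library (adjusted p 0.083 to 0.14 for Rps6ka1 and 0.069 to 0.17 for Scnn1a). Maml3 lost it without control normoxia 2, 3 or 4 or control hypoxia 3, 4 or 5 (adjusted p 0.052 to 0.10).

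Several called genes were near the lower end of the range, at a few CPM. Trpm1, a cation channel best known from the retina, was at 3.25, 4.25, 3.73 and 3.99 CPM in normoxia and 1.35, 1.10, 1.78 and 1.46 CPM in hypoxia, and fell by 1.41 ± 0.21 (adjusted p 0.00750). Tmem82, a transmembrane protein, fell by 1.199 ± 0.19 in the controls and by 1.46 ± 0.17 in the knockouts. The zinc finger genes Zfp970 and Zik1 fell by 1.14 ± 0.17 and 0.68 ± 0.12. Trpm1 passed in 16 of the 20 alternatives and lost the call without control hypoxia 3 (adjusted p 0.059) or 4 (0.051). Tmem82 passed in 14 and lost it without control normoxia 3 or control hypoxia 3 or 4 (adjusted p 0.070 to 0.075). Zfp970 passed in 13 and lost it without control normoxia 3 or control hypoxia 3, 4 or 5 (adjusted p 0.054 to 0.069). Zik1 passed in 10 and kept the call without control normoxia 2 or control hypoxia 6 but not without any other library (adjusted p 0.086 to 0.13). The remaining 5, Tbxas1, Cfap161, Gm10524, Zfp474 and I830077J02Rik, were outside the rule for named genes because of their low mean level or their provisional name, and are named here because they complete the count. Tbxas1, the thromboxane synthase, fell by 1.56 ± 0.24 from 2.24 to 2.53 CPM to 0.588 to 1.18 CPM. The other 4 fell by 1.04 to 2.09 on the log2 scale.

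**Figure D2:**
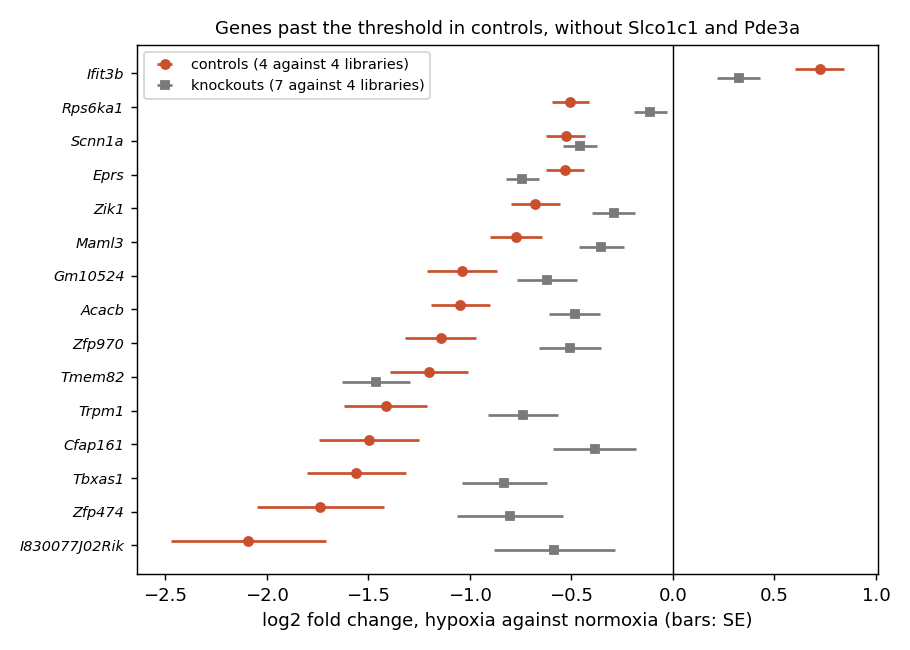
Log2 fold change of hypoxia against normoxia, with SE, for the 15 genes called in controls besides Slco1c1 and Pde3a; circles are controls (4 against 4 libraries) and squares knockouts (7 against 4). Every square lies on the same side of 0 as its circle, with Tmem82 and Eprs farther from 0 in the knockouts and the other 13 nearer to it.

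The only gene called higher was Ifit3b, a member of the interferon-induced tetratricopeptide family, whose proteins bind viral RNA and restrain its translation. Ifit3b was at 19.3, 13.8, 14.6 and 15.8 CPM in normoxia and at 28.1, 25.4, 26.0 and 25.5 CPM in hypoxia. All hypoxic libraries were above all normoxic ones, and the rise was 0.72 ± 0.12 on the log2 scale (adjusted p 0.0175). It passed in 11 of 20 alternatives; its adjusted p was 0.064 to 0.11 when control normoxia 2, 3 or 4 or control hypoxia 3, 4 or 5 was left out. The neighbouring paralog Ifit3, named after its values were seen, was at 24.7 to 26.4 CPM in normoxia and 33.5 to 42.8 CPM in hypoxia, a difference of 0.57 ± 0.11 with an adjusted p of 0.0667. Since the 2 genes are alike in sequence, reads can be split between them, and their separate levels are uncertain. Of 26 genes of the interferon response tested 1 was called, 9 were above 0 and 17 below, and the median was -0.10, against a median of -0.0046 over all genes. In the knockouts the Ifit3b difference was 0.32 ± 0.11 (adjusted p 0.0555).

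The promoters of the pair are shown because they carry the letters through which interferon-regulated factors act. The 250 bases before the start are printed 5′ to 3′ from RefSeq (build GRCm38.p6), Ifit3b from chr19:34607707-34607956 (plus strand) and Ifit3 from chr19:34583279-34583528 (plus strand); capitals mark GAAA, any 2 bases and again GAAA, the core of the interferon-stimulated response element, read on either strand.

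Ifit3b: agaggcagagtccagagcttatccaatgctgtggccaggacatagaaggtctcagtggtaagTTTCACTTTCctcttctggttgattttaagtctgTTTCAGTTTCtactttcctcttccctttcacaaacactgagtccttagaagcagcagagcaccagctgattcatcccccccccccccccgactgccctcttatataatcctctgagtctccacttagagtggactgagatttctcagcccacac
Ifit3: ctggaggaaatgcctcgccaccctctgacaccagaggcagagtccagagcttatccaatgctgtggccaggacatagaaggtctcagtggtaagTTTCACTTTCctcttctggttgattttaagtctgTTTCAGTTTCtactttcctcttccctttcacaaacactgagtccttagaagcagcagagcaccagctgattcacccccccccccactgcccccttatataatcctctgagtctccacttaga

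Each window held 2 matches that do not overlap, starting 188 and 154 bases before the start of Ifit3b and 156 and 122 bases before that of Ifit3. Of 32851 promoter windows of this length in the table, 978 (2.98%) held at least 1 match and 59 (0.1796%) at least 2. Aligned with each other, the 2 windows were identical at 216 of 282 columns (76.6%), where columns with a gap in 1 window count among the 282. The matches lie farther from the start in Ifit3b, so the windows are shifted against each other. The percentage therefore understates how alike the shared stretch is. Both matches have the same letters in the 2 genes, so the 2 promoters are not separate observations. A match describes the letters and not a bound site.

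Genes that HIF is known to raise showed small differences in both directions, with more members above 0 than below. Of 30 HIF targets tested none was called, and the median log2 difference was 0.06. Above 0 were 19 (63.3%), against 48.9% of all genes. Averaged over the members and set relative to the normoxic mean, the hypoxic libraries were at -0.07, -0.03, 0.06 and 0.11. The normoxic libraries were at -0.13 to 0.07, so these means overlapped. For 4 of them (13.3%) all hypoxic libraries were above all normoxic ones, against 4.49% of all genes, and none was below throughout. Mxi1, an antagonist of MYC, was the foremost: 221, 222, 212 and 199 CPM in normoxia and 292, 313, 292 and 276 CPM in hypoxia. The groups did not overlap, and the difference was 0.46 ± 0.11 with an adjusted p of 0.167 in edgeR's test; the control libraries alone gave an adjusted p of 0.020 and DESeq2 one of 0.027. In the knockouts Mxi1 was called, at 0.32 ± 0.10 (adjusted p 0.0442). Egln1, the prolyl hydroxylase PHD2 that marks HIF for destruction, was at 129, 138, 138 and 126 CPM in normoxia and 152, 141, 153 and 154 CPM in hypoxia, a difference of 0.18 ± 0.07 (adjusted p 0.447). The other 2 with no overlap, named after their values were seen, were Fam162a, a mitochondrial protein (0.22 ± 0.10), and Higd1a, a partner of the respiratory chain (0.14 ± 0.09).

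Some of the best-known outputs of acute hypoxia were not called. Vegfa, the vessel growth factor, was at 95.9, 109.7, 116 and 117 CPM in normoxia and 91.1, 96.9, 107 and 174 CPM in hypoxia. Control hypoxia 6 was the highest and control hypoxia 3 the lowest of all 8, and the difference was 0.10 ± 0.31 (adjusted p 0.966). Slc2a1, the glucose transporter GLUT1, differed by 0.01 ± 0.16, Pdk1, a brake on pyruvate oxidation, by 0.08 ± 0.07, and Bnip3, a mitophagy receptor, by 0.04 ± 0.08; these 3 were named after their values were seen. Adm, the vasodilator adrenomedullin, was lower in hypoxia by 0.74 ± 0.32 with overlapping groups (1.41 to 3.66 against 1.09 to 1.79 CPM). Of 30 angiogenic signals tested, a list that shares Vegfa and Adm with the HIF targets, none was called and for none did the groups fail to overlap.

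Among the genes of oxygen sensing, a list that also holds HIF subunits, Epas1 stood out. It encodes HIF-2 alpha, the HIF subunit best known in endothelium and astrocytes. Its level was 907, 1040.2, 988 and 893 CPM in normoxia and 715, 699, 759.6 and 703 CPM in hypoxia. All hypoxic libraries were lower, by 0.41 ± 0.15 on the log2 scale; the adjusted p was 0.3997 with the spread of all 19 libraries and 0.035 in the control libraries alone. In the knockouts it was called, at -0.64 ± 0.13 (adjusted p 0.00675). Hif3a, a variant subunit that can restrain the other two, was at 62.0 to 84.3 CPM in normoxia and 41.5 to 80.2 CPM in hypoxia, with overlap. Over the 12 genes of this list tested, 2 were higher with no overlap (Egln1 and, named after its values were seen, Vhl, which marks HIF for destruction). In the other direction 1 was lower (Epas1). That is 16.7% and 8.33% against 4.49% and 4.53% of all genes.

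Subunits of the enzyme that commits sugar to glycolysis differed in opposite directions. This enzyme, phosphofructokinase, is built from liver, muscle and platelet subunits. Pfkl, the liver subunit, was at 210.3, 220.1, 230.3 and 217 CPM in normoxia and 274, 251, 261 and 303 CPM in hypoxia. Pfkm, the muscle subunit, was at 1055, 1077, 1103 and 1044 CPM in normoxia and 875, 909, 915 and 876 CPM in hypoxia. Neither pair of groups overlapped, and the differences were 0.31 ± 0.07 (adjusted p 0.155) and -0.26 ± 0.08 (adjusted p 0.264). Both were called in the knockouts with nearly the same values, 0.32 ± 0.07 and -0.28 ± 0.07 (adjusted p 0.00668 and 0.0132). Per length, Pfkm was still the higher of the pair in hypoxia, at 263 against 40.1 RPKM. Of 22 glycolysis genes tested none was called, 15 were above 0, and the median difference was 0.03; 4 (18.2%) were higher with no overlap and 2 (9.09%) lower, against 4.49% and 4.53% of all genes. Besides Pfkl the higher ones, named after their values were seen, were Ldha, which makes lactate (0.21 ± 0.11), and the glycolytic enzymes Tpi1 (0.12 ± 0.07) and Pgk1 (0.12 ± 0.09). The other lower one, named likewise, was Pfkfb4, a regulator of phosphofructokinase (-0.17 ± 0.12).

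Promoters of 3 of these genes are shown because HIF acts through the short core ACGTG or GCGTG. The 250 bases before the start are printed 5′ to 3′ from RefSeq (GRCm38.p6), Mxi1 from chr19:53329163-53329412 (plus strand), Egln1 from chr8:124949255-124949504 (minus strand) and Pfkl from chr10:78009808-78010057 (minus strand); capitals mark the core on either strand. Mxi1 has 3 listed starts, of which 2 held the core, and the first of these is shown.

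Mxi1: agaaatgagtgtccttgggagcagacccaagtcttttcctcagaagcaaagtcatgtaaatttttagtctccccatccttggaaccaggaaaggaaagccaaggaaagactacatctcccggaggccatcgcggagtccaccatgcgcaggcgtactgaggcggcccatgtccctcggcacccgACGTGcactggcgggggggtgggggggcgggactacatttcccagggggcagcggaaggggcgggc
Egln1: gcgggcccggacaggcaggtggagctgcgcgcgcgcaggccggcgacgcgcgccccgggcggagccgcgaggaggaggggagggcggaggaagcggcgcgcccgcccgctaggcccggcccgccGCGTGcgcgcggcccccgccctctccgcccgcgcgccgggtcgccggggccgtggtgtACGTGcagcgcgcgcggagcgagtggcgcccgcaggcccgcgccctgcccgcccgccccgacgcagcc
Pfkl: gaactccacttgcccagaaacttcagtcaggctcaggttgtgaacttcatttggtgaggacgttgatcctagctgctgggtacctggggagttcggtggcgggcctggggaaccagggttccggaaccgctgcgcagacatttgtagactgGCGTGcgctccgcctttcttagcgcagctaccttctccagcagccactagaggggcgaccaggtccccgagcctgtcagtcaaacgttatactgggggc

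The core lies 66 bases before the start in Mxi1, 126 and 68 bases before it in Egln1, and 99 bases before it in Pfkl. Of all windows in the table, 12679 of 32851 windows of this length (38.6%) held it.

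**Figure D3:**
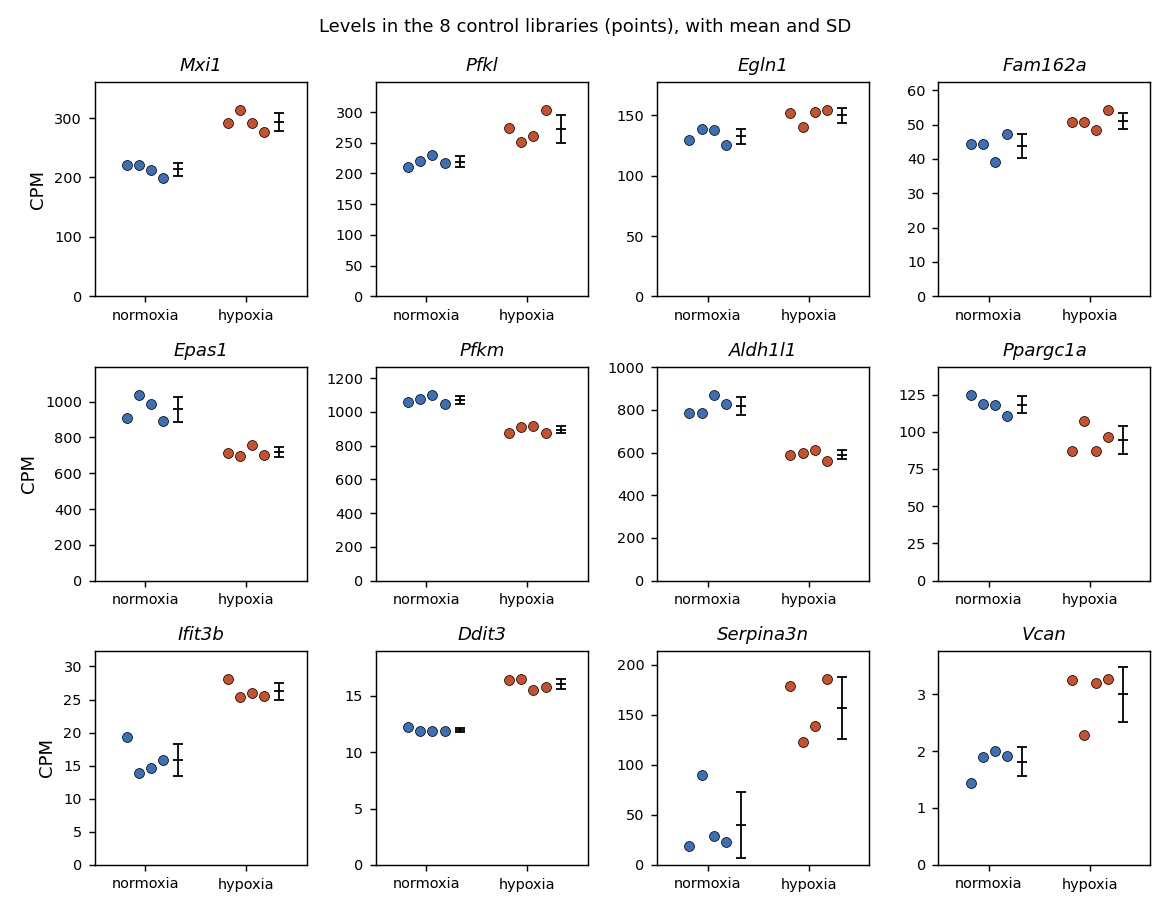
Levels of 12 genes in the 8 control libraries, in CPM on linear axes from 0; points are libraries, and the bar beside each group gives its mean and SD. The panels hold only genes whose groups do not overlap, so in all 12 the 4 hypoxic points lie on 1 side of the 4 normoxic points. Over all genes the groups did not overlap for 4.49% (higher) and 4.53% (lower). Genes with overlapping groups, such as Vegfa, Adm and Hif3a, are not shown. Ifit3b alone among the 12 passed the threshold.

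Of 31 genes of glycogen, creatine and amino acid metabolism, 8 (25.8%) were lower with no overlap and none was higher, against 4.53% and 4.49% of all genes. Pygm, the muscle form of glycogen phosphorylase, which frees glucose from glycogen, was at 302, 287, 361 and 336 CPM in normoxia and 254, 277, 251 and 234 CPM in hypoxia. That is a difference of -0.34 ± 0.12 (adjusted p 0.360), and Pygm was called in the knockouts at -0.71 ± 0.10 (adjusted p 0.00112). Shmt1, which passes serine carbon to folate, was at 4.95, 5.22, 5.71 and 4.84 CPM in normoxia and 3.69, 3.17, 3.27 and 3.85 CPM in hypoxia. Its difference of -0.57 ± 0.14 had an adjusted p of 0.193 in edgeR's test and 0.027 in DESeq2, and in the knockouts it was -0.03 ± 0.13. The others, named after their values were seen, included Ckb, the brain creatine kinase (-0.30 ± 0.11), Aldh18a1 for proline synthesis (-0.26), Pygb for glycogen breakdown (-0.15), Gys1 for glycogen synthesis (-0.14) and Gldc for glycine breakdown (-0.16). None of the 31 was called and the list median was -0.08.

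Of 23 genes of fatty acid oxidation and PPAR signalling, which burn fat in mitochondria or control that use, 18 were below 0 and 5 (21.7%) were lower with no overlap, against 4.53% of all genes; none was higher with no overlap and none was called. Ppargc1a, the coactivator PGC-1 alpha that promotes mitochondrial gene expression, was at 125, 118, 118 and 111 CPM in normoxia and 87.0, 107, 87.0 and 96.4 CPM in hypoxia (-0.32 ± 0.11, adjusted p 0.329). Acadvl, the first enzyme of long-chain fatty acid oxidation, was at 86.0 to 88.2 CPM in normoxia and 71.9 to 76.2 CPM in hypoxia (-0.23 ± 0.10, adjusted p 0.515). For both genes all hypoxic libraries were below all normoxic ones. Hadhb, Hadha and Acot2, which act on fatty acyl chains in mitochondria and were named after their values were seen, completed the 5 at -0.24, -0.13 and -0.28. Of 44 nuclear genes of oxidative phosphorylation 7 (15.9%) were lower with no overlap and 1 was higher; Uqcrc1, a core subunit of complex III, was at 300.3 to 334 CPM in normoxia and 274 to 281 CPM in hypoxia (-0.21 ± 0.07, adjusted p 0.334) and was called in the knockouts (-0.23 ± 0.06, adjusted p 0.0185). The median of that list was -0.0011, with 21 of 44 above 0, and the median was above 0 in 11 of the 20 alternatives (0.0076 with RLE scaling). Of 25 genes of the citric acid cycle and pyruvate entry, 19 were below 0 and 4 (16.0%) were lower with no overlap, among them Sdha, a subunit of succinate dehydrogenase that the oxidative phosphorylation list also holds (-0.16 ± 0.08). The medians of the fatty acid oxidation, citric acid cycle and glycogen lists stayed below 0 in all 20 alternatives.

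The 13 genes of the mitochondrial genome were all above 0, with a median of 0.46, but the libraries were uneven. Their mean over members, relative to the normoxic mean on the log2 scale, was 0.29 in control hypoxia 3, -0.07 in control hypoxia 4, 0.52 in control hypoxia 5 and 0.59 in control hypoxia 6, against -0.13 to 0.18 in the normoxic libraries. These library means overlapped between the groups, and none of the 13 was called. For mt-Co1, a subunit of complex IV, the values were 9.94 to 13.7 CPM in normoxia and 14.0 to 25.2 CPM in hypoxia. The difference was 0.77 ± 0.70 (adjusted p 0.818 in edgeR's test). Among the 13, mt-Co1 was the only 1 (7.69%) with no overlap, near the 4.49% of all genes.

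Cytosolic ribosomal proteins, the protein parts of the ribosome, had the largest share of members with no overlap among the 34 pathway lists. Of 77 tested, 71 (92.2%) were above 0, against 48.9% of all genes, and for 40 of them (51.9%) every hypoxic library was above every normoxic one, against 4.49% of all genes. None was below throughout, and none passed the threshold. The median difference was 0.20 on the log2 scale, and it lay between 0.175 and 0.232 in the 20 alternatives. Averaged over the members and set relative to the normoxic mean, the libraries were at 0.01, -0.02, -0.06 and 0.07 in normoxia and at 0.24, 0.19, 0.18 and 0.18 in hypoxia, with no overlap. Rpl29, of the large subunit, was at 25.0, 24.1, 22.1 and 24.2 CPM in normoxia and 30.01, 29.2, 30.6 and 29.2 CPM in hypoxia (0.32 ± 0.09, adjusted p 0.234). Rps3a1, of the small subunit, was at 37.6, 39.3, 36.2 and 40.8 CPM in normoxia and 51.3, 47.2, 52.5 and 48.1 CPM in hypoxia (0.37 ± 0.11, adjusted p 0.253). Rplp1, a protein of the ribosomal stalk named after its values were seen, was at 102.9 to 118 CPM in normoxia and 139 to 165 CPM in hypoxia (0.46 ± 0.14). Rpl10a, the protein that the astrocyte transgene also encodes, was not among them, at 460.2 to 503 CPM in normoxia and 299 to 536 CPM in hypoxia. Rps2, also named after its values were seen, was on the other side of 0, at 59.9 to 66.6 CPM in normoxia and 37.5, 35.3, 60.1 and 39.9 CPM in hypoxia (-0.54 ± 0.17, adjusted p 0.323). The knockouts had a median of 0.26, with 74 of 77 above 0 and 15 called higher; over all genes 53.2% were above 0 and 4.76% called higher there.

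Gene length moved with this shift. Genes whose average log2 CPM was 1 or more were cut by deposited length into 5 bins of 2796 genes, and the median difference was 0.065 in the shortest bin, then 0.016, -0.0050 and -0.022, and -0.035 in the longest. In the shortest bin, of up to 2168 bases, 12.6% of genes were higher with no overlap and 2.68% lower; in the longest, 1.93% were higher and 7.22% lower. The shortest bin without ribosomal protein genes had a median of 0.063, below the 0.19 of the 70 ribosomal protein genes at that expression. These 70 genes were 383 to 6270 bases long, so not all of them belong to the shortest bin. The part of length in the ribosomal shift was not tested beyond this. Ribosomal protein genes have many near-identical pseudogene copies, so their levels depend on how reads with several matches were counted, for which the sources used here name no setting.

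**Figure D4:**
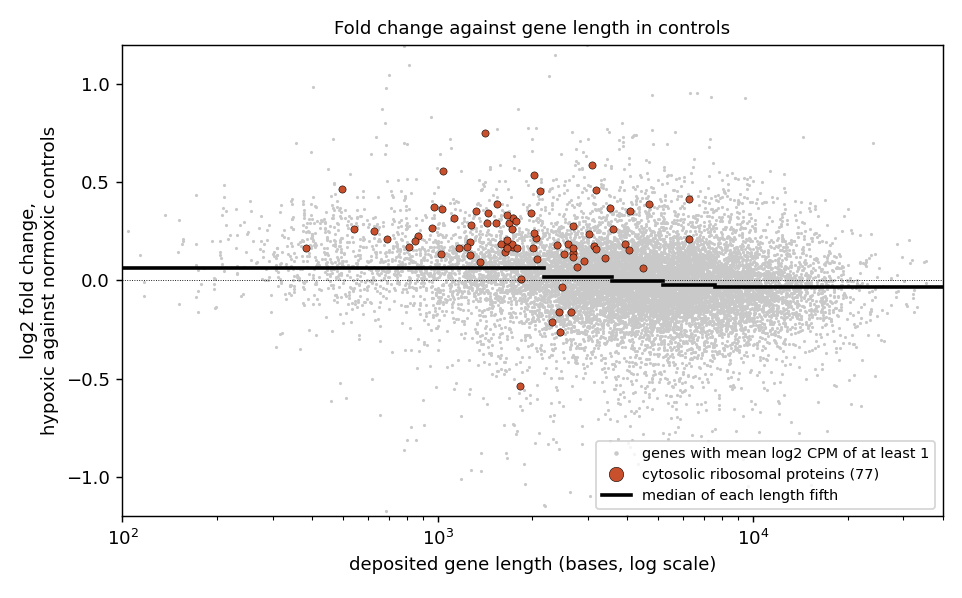
Log2 fold change of hypoxic against normoxic controls (vertical axis, cropped at 1.2 on both sides) against deposited gene length in bases (log axis); grey points are genes whose average log2 CPM was 1 or more, coloured points the 77 cytosolic ribosomal protein genes, and black lines the median of each length bin. The line steps down from 0.065 to -0.035, and 71 of the 77 coloured points lie above 0.

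Genes of protein turnover and stress had small differences. Of 31 proteasome genes 26 were above 0, with a median of 0.06 and 2 (6.45%) higher with no overlap, near the 4.49% of all genes; Psmd6, a subunit of the cap, was at 74.1 to 78.6 CPM in normoxia and 82.5 to 90.2 CPM in hypoxia (0.16 ± 0.06, adjusted p 0.365). Ddit3 encodes CHOP, a transcription factor of prolonged stress of the endoplasmic reticulum. It was at 12.2, 11.9, 11.9 and 11.9 CPM in normoxia and 16.4, 16.5, 15.5 and 15.8 CPM in hypoxia. These narrow groups did not overlap, and the difference of 0.42 ± 0.10 had an adjusted p of 0.155 in edgeR's test with all libraries, 0.048 with the controls alone and 0.016 in DESeq2. Manf, a secreted factor of the same response, was at 19.7 to 22.98 CPM in normoxia and 23.1 to 27.2 CPM in hypoxia (0.29 ± 0.08, adjusted p 0.264), with -0.18 ± 0.07 in the knockouts. Over the 31 genes of the integrated stress and unfolded protein responses the median was 0.04, 2 were higher and 2 lower with no overlap (6.45% each, near the shares of all genes), and none was called.

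Genes of astrocyte homeostasis differed in both directions. Of 29 tested 14 were above 0 and 15 below, none was called, and the median was -0.0050, above 0 in 10 of the 20 alternatives (0.0037 with RLE scaling). Aldh1l1, the folate enzyme whose promoter drives the tagged ribosomal protein, was at 787, 786, 872 and 828 CPM in normoxia and 588, 598, 612 and 562 CPM in hypoxia. Every hypoxic library was lower; the difference of -0.47 ± 0.13 had an adjusted p of 0.230 with all libraries and 0.019 with the controls alone, and in the knockouts it was called (-0.55 ± 0.11, adjusted p 0.00588). S100b, a calcium-binding protein of astrocytes, was higher in every hypoxic library, at 708 to 756 CPM against 608 to 663 CPM (0.21 ± 0.09, adjusted p 0.509). Gfap, the filament protein of reactive astrocytes, was at 4962 to 6624 CPM in normoxia and 5332 to 6494 CPM in hypoxia, with overlap.

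Of 14 pan-reactive astrocyte genes 1 (7.14%) was higher with no overlap, near the 4.49% of all genes, and none was called. Serpina3n, a secreted protease inhibitor, was at 19.2, 89.5, 28.9 and 23.1 CPM in normoxia and 179, 123, 138 and 186 CPM in hypoxia. Control normoxia 2 stood above the other normoxic libraries but below all hypoxic ones. The difference was 1.96 ± 0.51 with an adjusted p of 0.198, and 2.72 with an adjusted p of 0.049 without control normoxia 2. In the knockouts it was -0.12 ± 0.44, and the difference between the genotypes was not called (adjusted p 0.315 in edgeR's interaction test). Of 39 extracellular matrix genes 26 were below 0, with a median of -0.11 that turned to 0.10 without the 3 libraries low in Y-linked RNA; Vcan, the proteoglycan versican, was higher with no overlap, at 1.44 to 2.003 CPM in normoxia and 2.28 to 3.27 CPM in hypoxia (0.73 ± 0.19, adjusted p 0.191 in edgeR's test and 0.024 in DESeq2).

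Genes of daily rhythm, steroid hormones and cell activity included several in which single libraries stood apart. Per1, a clock repressor that glucocorticoids also induce, was at 287, 378, 299 and 288 CPM in normoxia and 240.4, 232, 214 and 242 CPM in hypoxia (-0.43 ± 0.17, adjusted p 0.457). Tef, a clock-controlled transcription factor, was higher in every hypoxic library, at 455 to 510 CPM against 400.5 to 427 CPM (0.19 ± 0.08, adjusted p 0.511). Of 19 clock genes 3 (15.8%) were higher and 2 (10.5%) lower with no overlap, against 4.49% and 4.53% of all genes; none was called, and the median was 0.0069. Zbtb16, a glucocorticoid-induced transcription factor, was at 24.4 to 31.3 CPM in normoxia and at 99.7, 95.1, 73.9 and 19.8 CPM in hypoxia. Control hypoxia 6 was thus below all normoxic libraries and the other 3 above them. Fkbp5, induced by the same hormones, was at 46.9 to 81.7 CPM in normoxia. In hypoxia it was, in the same order of libraries, at 181, 159, 132 and 28.2 CPM. Of 24 glucocorticoid response genes tested 16 were below 0, with a median of -0.05, and none was called. With no overlap 2 (8.33%) were lower and none was higher, against 4.53% and 4.49% of all genes. Immediate early genes, which follow recent cell activity, had a median of 0.29 over 21 genes; their mean was 0.85 in control hypoxia 6 and -0.38 in control hypoxia 4, and the median was -0.13 without control hypoxia 6 and -0.22 without the 3 libraries low in Y-linked RNA. Jun was at 110.1 to 138 CPM in normoxia and 155 to 197 CPM in hypoxia (0.46 ± 0.14, adjusted p 0.274). Rbm3, a cold-inducible RNA-binding protein, differed by 0.36 ± 0.14 with overlapping groups (22.99 to 33.9 against 29.5 to 45.9 CPM). Tfeb, a regulator of lysosome genes, was at 48.9 to 59.8 CPM in normoxia and 62.6 to 72.5 CPM in hypoxia, and Gstm1, a glutathione transferase among the NRF2 targets, at 2764 to 2951 and 2187 to 2518 CPM. Neither pair of groups overlapped, and neither gene passed the threshold in edgeR's test. Of 21 autophagy and mitophagy genes, which include Tfeb, 2 (9.52%) were higher and 3 (14.3%) lower with no overlap. Over all genes these shares were 4.49% and 4.53%. Wipi1 of this list was among the lower ones (-0.22 ± 0.08, adjusted p 0.417 in edgeR's test). Of 23 NRF2 antioxidant genes 2 (8.70%) were lower and none was higher with no overlap. No member of these lists was called.

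**Figure D5:**
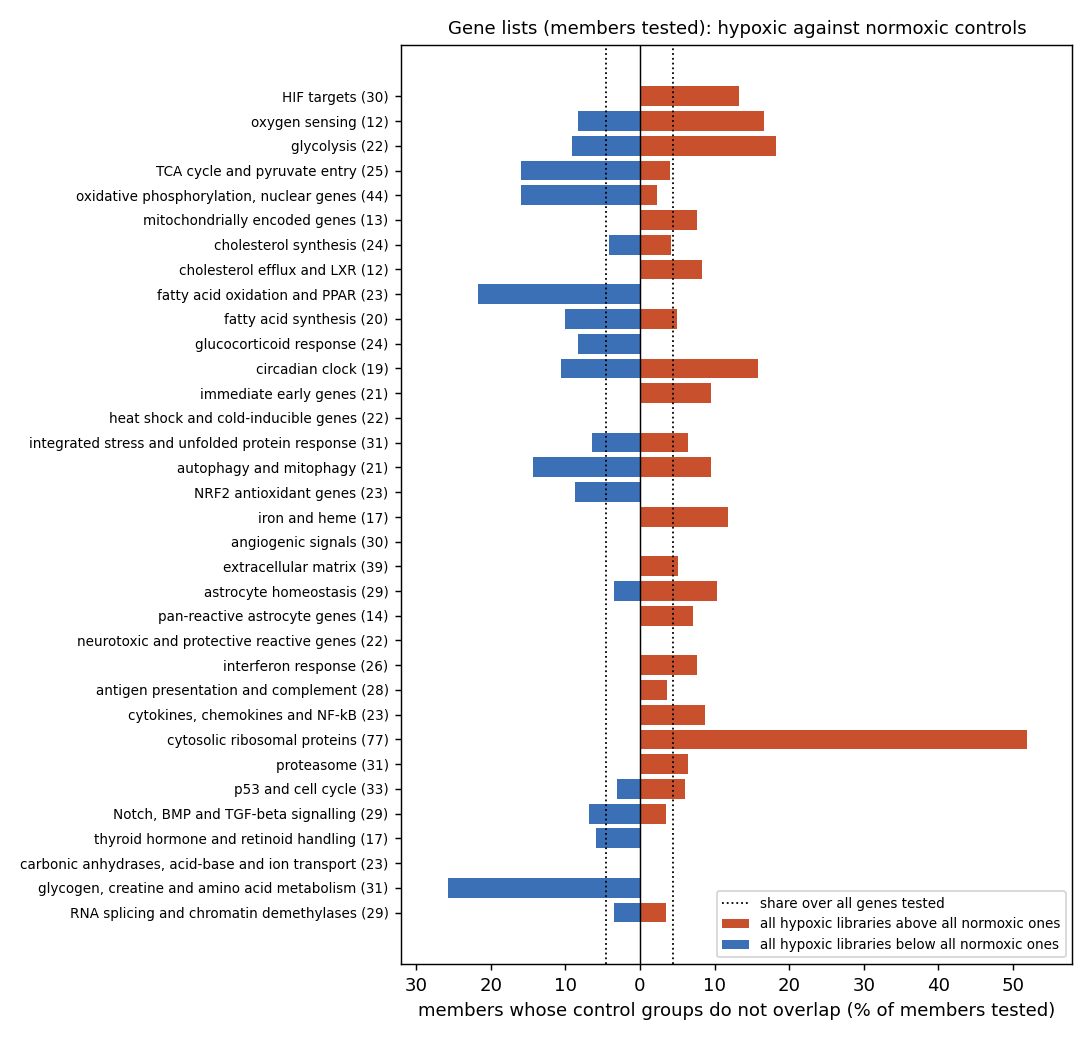
Share of members of each of the 34 pathway lists for which all hypoxic control libraries were above (right) or below (left) all normoxic ones, in percent of members tested (number in brackets); dotted lines give the shares over all 19854 genes, 4.49% and 4.53%. Ribosomal proteins reach 51.9% on the right, and glycogen, creatine and amino acid metabolism 25.8% on the left, with fatty acid oxidation at 21.7%.

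Markers of other cells differed between the groups, in part through single libraries. Of 15 neuron markers, whose summed level was 1135 to 1609 CPM in normoxia and 1327 to 1969 CPM in hypoxia, 14 were above 0, with a median of 0.15 and library means of 0.63, 0.04, 0.10 and 0.22 in control hypoxia 3, 4, 5 and 6 against -0.20 to 0.24 in normoxia; without control hypoxia 3 and 6 the median was -0.056. All 12 choroid plexus markers were below 0, with a median of -0.72 and summed levels of 1518 to 6422 CPM in normoxia and 282 to 3310 CPM in hypoxia; their library means were -2.93 in control hypoxia 3 and -1.11 in control hypoxia 6, and 0.15 and 0.06 in the other 2, and the median was 0.049 without the 3 libraries low in Y-linked RNA. Of 7 erythroid markers tested (the sum is mostly Bpgm and Fech, which other cells use) 6 were above 0, with a median of 1.04 and summed levels of 244 to 271 CPM in normoxia and 251 to 276 CPM in hypoxia; the globin gene Hba-a1 was at 0.281 to 1.42 CPM in normoxia and 1.45 to 2.13 CPM in hypoxia, and its near-identical copies make the level of each uncertain. Summed microglial markers were at 212 to 259 CPM in normoxia and 199.7 to 234 CPM in hypoxia. Of 13 ependymal and ciliary markers 10 were below 0, with a median of -0.33 and summed levels of 95.0 to 109 CPM in normoxia and 65.3 to 97.8 CPM in hypoxia; the median was 0.040 without control hypoxia 3 and 6. Of 10 cerebellar markers tested 8 were above 0 and 2 higher with no overlap (against 4.49% of all genes), with a median of 0.30 and summed levels of 566 to 693 and 667 to 705 CPM. No marker of these 6 lists was called. The part of these cells in the shifts of the pathway lists was not tested; without control hypoxia 3 and 6, whose choroid plexus RNA was low, the ribosomal median was 0.21, and 69 of 77 members were above 0.

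Genes with a low p-value in the controls mostly had the same direction in the knockouts. Of the 1788 genes with an unadjusted p under 0.05 in controls, 1394 (78.0%) had the same sign in the knockouts, whose libraries are separate. Over all genes, 48.9% were above 0 in controls and 53.2% in knockouts, and the share with the same sign was not determined. The length bins moved in both: the knockout median was 0.091 in the shortest bin and -0.079 in the longest. Lists did not all keep their direction. The ribosomal median was 0.20 in controls and 0.26 in knockouts. That of cholesterol synthesis was 0.07 and -0.41, and that of choroid plexus markers -0.72 and 0.15. The knockout values printed above for Eprs, Tmem82, Mxi1, Pfkl, Pfkm, Epas1, Aldh1l1, Pygm and Uqcrc1 passed the threshold there. Besides Slco1c1 and Pde3a no gene passed the test of a different response, which does not show that the 2 genotypes responded alike.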

How the data were processed

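The series holds RNA-seq libraries of mouse brain, astrocyte-enriched by its design. The authors deposited a table of raw read counts per gene and the RPKM values made from it, and RPKM equalled count per gene length per library total in every cell (largest relative difference 6e-15). Alignment with HISAT2 to GRCm39 and use of edgeR are named per the submitters' processing notes; the counting tool, its use of strand and versions are not given in the sources used here. Of small counts, from 2 to 21, 65.8% were even in the control libraries; counts are not taken as independent molecules.

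The counts of all 19 libraries were fitted with edgeR 4.0.16 (R 4.3.3): filterByExpr, TMM scaling, 4 group terms, robust quasi-likelihood test, Benjamini-Hochberg adjustment over 19854 genes, threshold 0.05. Alternatives used DESeq2 1.42.0, limma-voom (limma 3.58.1), RLE scaling, other filters, a replicate block and left-out libraries. Levels are TMM-scaled CPM; library means of lists use log2(CPM + 0.5) relative to the normoxic mean. The fit was checked on simulated counts. Genes are called non-overlapping where all hypoxic libraries are above, or all below, all normoxic ones.

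Genes to name were picked by rule. Of called genes with an average log2 CPM of 1 or more and no provisional symbol, these were the 12 largest rises and 12 largest falls. Each list gave up to 6 called members, or 2 in order of p where none was called. The design gave 10 genes (Pdcd10, Rpl10a, Aldh1l1, Gfap, Vegfa, Rbm3, Cirbp, Hif3a, Ddx3y and Xist). Not every gene picked is described. Left out were, among others, Cox7c, Lama5 and Osmr, whose groups overlapped, and Fdft1, Hsd17b7 and Smad7, whose groups did not. Most genes outside the rule are said to be named after their values were seen. The comparison and all lists were chosen with earlier results of these data known. No set test was run. Sequences and gene order are from RefSeq (GRCm38.p6).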

Additional observations from a re-analysis of the deposited data

Results flagged for a closer look

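In 208 groups of 4 libraries (104 genes) the highest or lowest library was set against the others, and 11 stood apart; chance flags about 1 in 20. Pde3a was at 1.27 CPM in control hypoxia 6, with the nearest other hypoxic library at 2.23 CPM. Acacb was at 5.81 CPM in control hypoxia 3, with the nearest at 8.47 CPM. In control hypoxia 4, Egln1 was at 140.7 CPM (nearest 152), Vcan at 2.28 CPM (nearest 3.20) and Mcm4, a DNA replication helicase subunit, at 30.2 CPM (nearest 25.9). In control normoxia 2, Serpina3n was at 89.5 CPM (nearest 28.9) and Per1 at 378 CPM (nearest 299). In control normoxia 1, Ddit3 was at 12.2 CPM (nearest 11.9) and Slc26a2, a sulfate transporter, at 5.33 CPM (nearest 10.7). Manf was at 22.98 CPM in control normoxia 4 (nearest 20.1). Xist, the RNA of the inactive X chromosome, was at 0.493 CPM in control hypoxia 6 (nearest 0.0692). The response to hypoxia differed between the genotypes in edgeR's interaction test for Pde3a, by 4.71 on the log2 scale, and for Slco1c1, by 2.83.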

How the results depend on the processing

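Slco1c1 and Pde3a were called in all 20 alternatives, and no result changed direction in a called value. The count of 17 genes (1 higher, 16 lower) changed most with the method. DESeq2 called 140 (59 higher, 81 lower) and limma-voom with sample weights 400 (161 and 239), both including all 17. The control libraries alone gave 35 (12 higher, 23 lower; 14 of the 17) and, with limma-voom, 78 (32 and 46; 16 of the 17). Leaving out knockout hypoxia 1, 2 and 3 gave 37 (8 and 29; all 17). A term for low Y-linked RNA gave 11 (1 and 10). RLE scaling and the filter of 1 CPM in 4 libraries each gave 2 higher genes. Leaving out 1 control library gave 3 to 39 calls, 0 to 12 higher and 3 to 27 lower. Alternatives chosen after seeing the data left out the 3 libraries with low Y-linked RNA (3 calls, 1 higher and 2 lower, 2 of the 17) or control hypoxia 3 and 6 (9 calls, 5 higher and 4 lower, 3 of the 17); both use fewer samples. In the test of a different response in knockouts (2 genes, 2 higher and 0 lower), DESeq2 called 108 (47 and 61), and leaving out 1 control library gave 2 to 23 (2 to 9 higher, 0 to 14 lower). Replicate numbers 3 and 4 occur in both control groups, but same-numbered libraries did not deviate together (correlations -0.15 and 0.065), so the numbers were not taken as pairs. The replicate block gave 16 calls (3 higher, 13 lower), 7 of them among the 17, and 9 genes (3 higher, 6 lower) in the test of a different response. The causes of these changes were not tested. Over the named genes, 1950 values kept their side of the threshold, 38 gained it and 82 lost it. The ribosomal median stayed between 0.175 and 0.232, and of the other list medians 920 moved by less than the spread between libraries and 40 by more. A missed threshold does not show that levels were equal.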

Other observations

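Ccl21a, a lymphoid chemokine gene with near-identical copies whose reads cannot be assigned with certainty, was named after its values were seen. It was at 8.51, 3.74, 9.61 and 10.6 CPM in the normoxic controls and at 0.0489, 0, 0 and 0 CPM in the hypoxic ones, and did not pass the threshold (adjusted p 0.092 in edgeR's test). In the knockouts it was at 0.777 to 5.17 CPM in normoxia. Knockout hypoxia 1, 2 and 3 were at 3.32, 4.02 and 3.88 CPM, and knockout hypoxia 4 to 7 at 0.0322, 0.0436, 0.0481 and 0 CPM. The low libraries thus fall within the hypoxia groups and do not cover all of the hypoxic knockouts.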
